A study of Mus musculus with 4 samples.

Results

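Klhl13, an adaptor of the cullin-3 ubiquitin ligase, was taken with the ligase core genes Cul3 and Rbx1 and the adaptors Klhl9, Keap1 and Klhl12, and these genes were followed through ribosome footprints of mouse embryonic stem cells, as 6 of the 25170 genes in the deposited table. They were taken by gene symbol. Klhl13 was chosen by its large difference between the groups in these same libraries, so its difference is given below as a description without a test, and the other 5 genes were taken as known parts of the same ligase family, with earlier results of these data in view. The cells were wild-type E14, a line from the inner cell mass of the blastocyst, and the groups were 2 libraries from cells kept in 1 µM PD and 2 from cells kept in the solvent DMSO, both for 3 passages. All were grown in serum with leukemia inhibitory factor on gelatin-coated dishes. The compound is named in the labels as PD and no further, and the study asks what the kinase Mek does to gene expression after transcription. The libraries are bulk cultures of 1 cell line, in which fewer cells of a type and less RNA per cell cannot be told apart. The labels do not tell whether replicates were separate cultures, so the spread between them may be technical. Values are FPKM, fragment numbers scaled for transcript length and library depth.

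Cullin-RING ligases attach ubiquitin to chosen proteins. Cul3 is the scaffold: its far end holds the RING protein Rbx1, which brings in the ubiquitin-loaded enzyme, and its near end holds an adaptor whose BTB domain binds Cul3 and whose other domain, a Kelch propeller in the Klhl proteins, binds the protein to be marked. Klhl9 and Klhl13 are closely related adaptors that, in human cells, act together on the mitotic kinase Aurora B. Keap1 is the adaptor for the stress factor Nrf2, and Klhl12 marks the vesicle coat protein Sec31 and the Wnt component Dishevelled. In mouse embryonic stem cells, Klhl13 is known as an X-linked gene whose dosage bears on pluripotency and differentiation.

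The libraries differed in depth, and depth went with the groups. Relative to DMSO replicate 1, depth was 0.464 in PD replicate 1, 0.201 in PD replicate 2 and 1.42 in DMSO replicate 2, read from the steps by which FPKM values rise with each read. Whole reads were recovered in this way for 73.6% of 2000 coding genes, against 2.3% with wrong steps. All 6 pluripotent cell markers had footprints, with summed levels of 2011 and 3677 FPKM in the PD libraries and 2142 and 2125 in the DMSO libraries. Dppa5a made up most of each sum, and without it the other 5 summed to 590.3 and 474 FPKM in the PD libraries and 728 and 492 in the DMSO libraries. The 8 feeder and fibroblast markers summed to 2.67 and 3.44 FPKM in the PD libraries and to 1.95 and 2.33 in the DMSO libraries, with Lum and Postn listed at 0 throughout. The 6 extraembryonic endoderm markers summed to 1.02 and 1.25 FPKM in the PD libraries and to 0.55 and 0.527 in the DMSO libraries, with Gata6 listed at 0 throughout. Both of these sums were higher in the PD libraries, but they lay near the floor. No feeder marker exceeded 2.1 FPKM in any library, and no endoderm marker exceeded 0.569 FPKM. Thy1 had 6 and 3 recovered reads in the PD libraries and 8 and 15 in the DMSO libraries. For Sox7 they were 3 and 1 in the PD libraries and 3 and 2 in the DMSO libraries. In the shallower PD libraries each read is worth more FPKM. The part of these markers in the results below was not tested. Footprints of a gene follow its mRNA as well as its translation, and no RNA-seq was used here to separate them.

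Klhl13, the substrate adaptor, stood at 62.3 and 76.4 FPKM in the PD libraries, against 241 and 260 FPKM in the DMSO libraries. Both PD libraries lay below both DMSO libraries, and within a group the libraries differed by a factor of 1.23 in PD and 1.08 in DMSO. The means were 69.4 ± 9.97 FPKM in PD and 251 ± 13.1 FPKM in DMSO (SD, n = 2 each), a level 3.61-fold lower in PD and a log2 difference of -1.84 on the log2(FPKM + 1) scale. The deposited confidence bounds ran from 35.3 to 89.4 and from 42.7 to 110.1 FPKM in the PD libraries, and from 123.6 to 359.1 and from 132.1 to 387.8 FPKM in the DMSO libraries. The highest PD bound thus lay below the lowest DMSO bound. Klhl13 was chosen for this difference, and the bounds carry little of the depth difference, as given below, so this describes the values only. Among tested coding genes, Klhl13 sat at the 91.3rd and 93.5th percentile of level in the PD libraries, and at the 98.1st and 98.6th in the DMSO libraries.

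The reads behind these values were recovered as 77 in PD replicate 1 and 41 in PD replicate 2, against 643 in DMSO replicate 1 and 981 in DMSO replicate 2. Their exact 95% Poisson intervals were 60.8 to 96.2 and 29.4 to 55.6 reads in the PD libraries, and 594 to 695 and 921 to 1044 reads in the DMSO libraries. Such intervals cover counting error only and treat each read as an independent molecule, which was not checked. The 41 reads of PD replicate 2 were the single number up to 400 that fitted all 4 libraries within 0.02 reads, with a largest error of 0.014. A multiple of it multiplies that error, so actual reads that are a multiple cannot be told from this fit. For Klhl13 they amount to 2.66 reads for each FPKM in DMSO replicate 1, against a median of 11.1 over 6088 coding genes with recovered reads, and 5.88% of those genes had fewer. Reads per FPKM grow with the transcript length that the FPKM were divided by, so the level of Klhl13 against other genes depends on the length it was given, which is not in the table. That length cancels in its ratio between libraries.

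Klhl13 lies on the reverse strand of the X chromosome (mm10, chromosome X, 23219271 to 23365082), and RefSeq lists 5 starts for it. Klhl9, its close relative, lies on the reverse strand of chromosome 4 (88718292 to 88722508). The 250 bases before the start that matches each deposited locus are shown for these relatives, whose footprint values between the groups differ as given here and below. Sequences are from RefSeq on GRCm38.p6, the assembly of mm10, 5′ to 3′ along the gene, at chrX:23365083-23365332 and chr4:88722509-88722758. Capitals mark CCGGAA, a core motif of ETS factors, some of which ERK phosphorylates, searched on both strands.
Klhl13: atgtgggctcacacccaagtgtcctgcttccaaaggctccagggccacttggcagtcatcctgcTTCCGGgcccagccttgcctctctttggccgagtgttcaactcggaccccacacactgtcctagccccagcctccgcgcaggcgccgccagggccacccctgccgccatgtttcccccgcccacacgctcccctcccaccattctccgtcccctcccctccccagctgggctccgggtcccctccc
Klhl9: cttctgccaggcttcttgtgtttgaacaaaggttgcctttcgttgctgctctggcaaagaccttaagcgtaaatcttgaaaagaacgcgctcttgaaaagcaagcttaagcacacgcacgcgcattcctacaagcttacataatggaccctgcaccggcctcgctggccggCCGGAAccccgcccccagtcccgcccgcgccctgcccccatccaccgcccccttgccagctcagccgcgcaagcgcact
Each window held 1 match, which begins 186 bases before the start in Klhl13 and 79 bases before it in Klhl9. For Klhl13 this covers 1 of its 5 listed starts, and which start these cells use was not examined. The motif was absent from the corresponding windows of Cul3, Rbx1, Keap1 and Klhl12, and 12% of 32851 RefSeq promoter windows of the same length held it. The Klhl13 window had 12 CpG sites and the Klhl9 window 19, against a median of 6 over all windows. A match is a stretch of letters, and footprints do not bear on which factors bind there.

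Klhl9, the other adaptor of the pair, overlapped between the groups. It had 8.47 and 11.5 FPKM in the PD libraries, against 8.39 and 10.4 FPKM in the DMSO libraries. Replicate 2 was the higher library in each group. The means were 9.98 ± 2.14 FPKM in PD and 9.4 ± 1.42 FPKM in DMSO (SD, n = 2 each), with limma giving 0.07 ± 0.29 on the log2 scale (difference ± SE, adjusted p = 0.977). The difference was -0.13 without PD replicate 2 and -0.07 without DMSO replicate 1. Its recovered reads were 73 and 43 in the PD libraries and 156 and 274 in the DMSO libraries. The FPKM of Klhl13 were 7.36 and 6.65 times those of Klhl9 in the PD libraries, against 28.8 and 25 times in the DMSO libraries. In recovered reads, which are not divided by length, the same ratios were 1.05 and 0.953 in the PD libraries and 4.12 and 3.58 in the DMSO libraries. The read ratio is the FPKM ratio times a constant that is the same in every library, so both scales show the same change by construction. The FPKM and read ratios differ in size, and the lengths behind them were not examined. The actual reads of either gene may also be a multiple of those recovered, so the size of the read ratios is not settled. Reads that match both relatives could have been shared between them, and the sources used here do not state how such reads were treated.

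Cul3, the scaffold (chromosome 1, 80264923 to 80340690), had 17.7 and 16.4 FPKM in the PD libraries, against 26 and 15.1 FPKM in the DMSO libraries. Both PD libraries lay between the DMSO libraries, which differed from each other by a factor of 1.73. Limma gave -0.21 ± 0.35 on the log2 scale (difference ± SE, adjusted p = 0.931), and the difference was 0.16 without DMSO replicate 1. No whole reads could be recovered for Cul3.

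Rbx1, the RING subunit shared by most cullin ligases (chromosome 15, 81466316 to 81476369), varied most among the members. It had 8.65 and 2.21 FPKM in the PD libraries, against 16.6 and 6.09 FPKM in the DMSO libraries. Replicate 1 exceeded replicate 2 in both groups, by a factor of 3.91 in PD and 2.74 in DMSO, and the groups overlapped. Limma gave -1.01 ± 0.74 on the log2 scale (difference ± SE, adjusted p = 0.843). PD replicate 2 rested on 3 recovered reads, with an exact 95% Poisson interval of 0.619 to 8.77, against 27 in PD replicate 1 and 112 and 58 in the DMSO libraries. The log2 difference was -1.8 without PD replicate 1, -0.21 without PD replicate 2, -0.35 without DMSO replicate 1 and -1.66 without DMSO replicate 2. With replicate number as a block, the adjusted p of Rbx1 was 0.677 (limma).

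The remaining adaptors lay at a lower level and overlapped between the groups. Keap1, which holds the stress factor Nrf2 for degradation (chromosome 9, 21229730 to 21239332), had 6.95 and 6.91 FPKM in the PD libraries, against 7.25 and 4.45 FPKM in the DMSO libraries. Both PD libraries fell inside the range of the DMSO libraries, with limma giving 0.24 ± 0.32 on the log2 scale (difference ± SE, adjusted p = 0.907), which turned to -0.06 without DMSO replicate 2. Klhl12, the adaptor for Sec31 and Dishevelled (chromosome 1, 134455531 to 134490873), had 9.07 and 4.68 FPKM in the PD libraries, against 5.36 and 7.01 FPKM in the DMSO libraries. Here the DMSO libraries lay inside the range of the PD libraries, and limma gave 0.08 ± 0.39 on the log2 scale (difference ± SE, adjusted p = 0.98), which was -0.33 without PD replicate 1 and -0.08 without DMSO replicate 1. The recovered reads in PD replicate 2 were 19 for Keap1 and 13 for Klhl12.

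**Figure D1:**
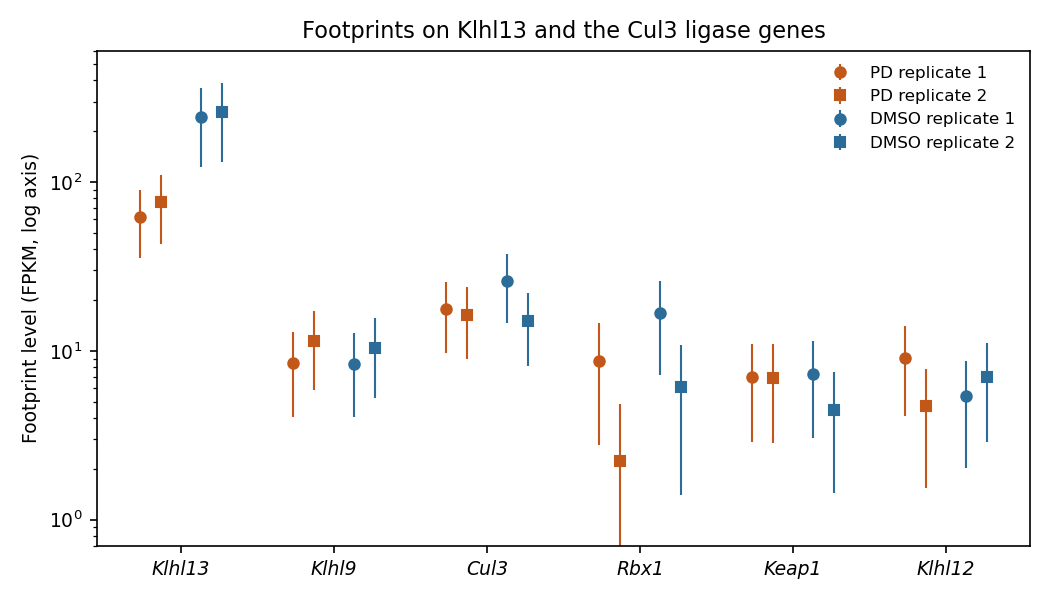
Footprint levels of the 6 genes in FPKM on a log axis, with PD libraries in orange left of DMSO libraries in blue, circles for replicate 1 and squares for replicate 2, and the deposited confidence bounds as bars (the lower bound of Rbx1 in PD replicate 2 is 0 and runs off the axis). The PD and DMSO bars do not meet for Klhl13, which was chosen for this difference, and overlap for the other 5 genes.

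Among the members, 1 of 6 was separated with PD lower, meaning that each PD library lay under each DMSO library, and 0 were separated with PD higher. Over the 9741 genes tested, 18.3% were separated with PD lower and 17.5% with PD higher. The 1 separated member is the gene that was chosen for this difference, so the count says nothing further. All 6 members passed the filter of a mean of at least 1 FPKM. None of the 5 partners passed the test, where limma called 0.226% of all tested genes lower and 0.0308% higher at an adjusted p under 0.05. Among the 8895 coding genes tested, limma called 0, with 458 at an unadjusted p under 0.05. The 25 genes called all lay outside this coding set, to which the members belong. That no partner passed, and that 0 passed in the lists below, therefore does not set them apart from other coding genes. By mean level over the 4 libraries, the order was Klhl13, Cul3, Klhl9, Rbx1, Klhl12 and Keap1. The lowest Klhl13 library, at 62.3 FPKM, exceeded the highest library of any partner, Cul3 in DMSO replicate 1 at 26 FPKM. The lowest Cul3 library, at 15.1 FPKM, also exceeded the highest Klhl9 library, at 11.5 FPKM, while Klhl9, Rbx1, Klhl12 and Keap1 each overlapped with the next in order.

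The deposited bounds did not widen with falling depth. Keap1 had nearly equal levels in PD replicate 2 and DMSO replicate 1, and its upper bound lay 58.9% above its level in PD replicate 2 and 58.3% above it in DMSO replicate 1. The exact Poisson half-widths of its recovered reads were 48% of the reads in PD replicate 2 and 20.2% in DMSO replicate 1. Over coding genes between 5 and 10 FPKM, the median distance from level to upper bound was 62.3% and 61.5% in the PD libraries, and 63% and 62.5% in the DMSO libraries. The bounds therefore carry little of the depth difference between these libraries.

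Klhl13 had the highest footprint level of the 49 BTB-Kelch genes matched in the table in each of the 4 libraries, per length. It made up 27.9% and 31.3% of their summed FPKM in the PD libraries, against 62% and 57.9% in the DMSO libraries. Rank and shares depend on the length behind its FPKM. Recovered reads, which are not divided by length, do not settle its place, since its actual reads may be a multiple of those recovered. Enc1 had 157 and 58 recovered reads in the PD libraries and 410 and 413 in the DMSO libraries, so it exceeded the 77 and 41 reads of Klhl13 in PD and not the 643 and 981 in DMSO. The fit for Klhl7 gave 1023 and 363 reads in the PD libraries and 1287 and 2624 in the DMSO libraries, more than for Klhl13 in each. It amounts to 159 reads per FPKM in DMSO replicate 1, more than for 96.5% of genes. Such a fit may be false, as wrong steps also gave whole reads for 2.3% of the coding genes checked. The sum of the other 48 was 161 and 168 FPKM in the PD libraries and 148 and 189 in the DMSO libraries, so the PD libraries lay inside the DMSO range. The next gene in every library was Ivns1abp, an adaptor named for binding an influenza protein, with 21.7 and 28.6 FPKM in the PD libraries and 24.9 and 50.6 in the DMSO libraries. Klhl9 ranked 10th and 6th in the PD libraries and 6th and 8th in the DMSO libraries.

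**Figure D2:**
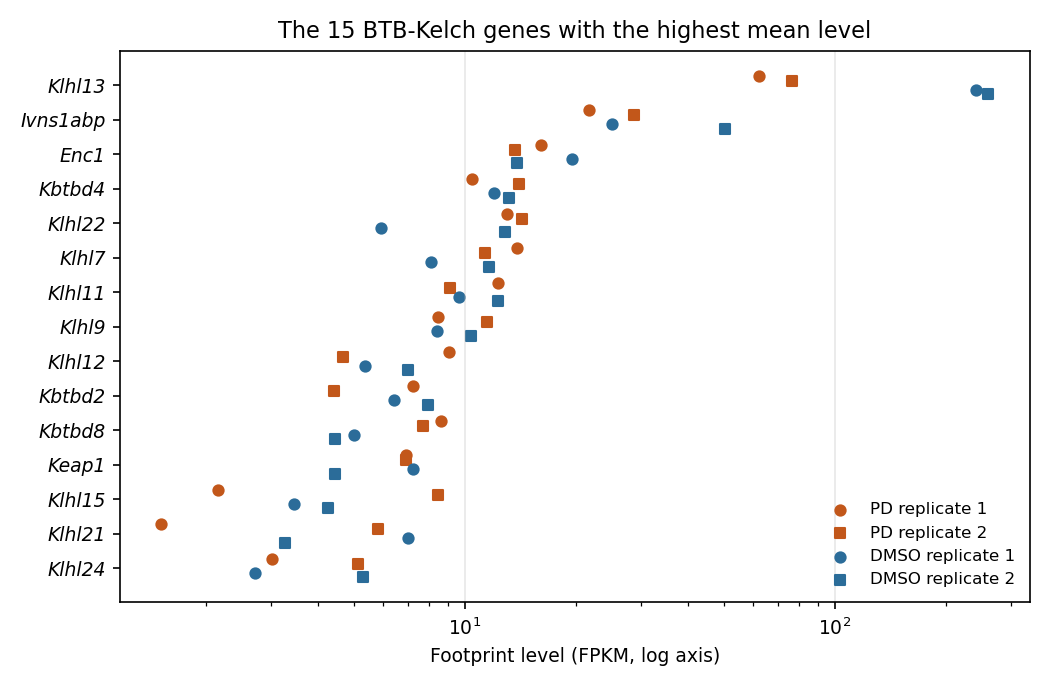
The 15 BTB-Kelch genes with the highest mean footprint level, in FPKM on a log axis, with 1 point per library (PD orange and above, DMSO blue and below within each gene, circles replicate 1 and squares replicate 2). Klhl13 lies to the right of all others in every library, and its DMSO points lie to the right of its PD points.

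Apart from the members, 20 of 45 matched BTB-Kelch adaptors passed the filter on low values. Of these, 1 was separated with PD lower and 3 with PD higher, 5% and 15%, against 18.3% and 17.5% of all tested genes. 0 passed the test. The median log2 difference was -0.09, against -0.02 over all tested genes, and it was 0.01 with quantile normalization and without DMSO replicate 2. Klhl22, which in human cells brings Cul3 to the mitotic kinase Plk1, had 13 and 14.3 FPKM in the PD libraries and 5.93 and 12.8 in the DMSO libraries (limma adjusted p = 0.838). Kbtbd8, which in human cells acts in neural crest specification, had 8.64 and 7.7 FPKM in the PD libraries and 5.01 and 4.44 in the DMSO libraries (limma adjusted p = 0.837). Klhl34, another X-linked Kelch gene, is named after its values were seen: it had the widest difference of these 20 genes, with a log2 difference of 1.36, from 7 and 3 recovered reads in the PD libraries and 2 and 4 in the DMSO libraries.

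Other BTB adaptors of Cul3, listed apart from the BTB-Kelch genes, had a median log2 difference of -0.13 over 18 tested genes of 27 listed. 5 were separated with PD lower and 2 with PD higher, 27.8% and 11.1%, against 18.3% and 17.5% of all tested genes. 0 passed. Kctd5, an adaptor for G protein beta subunits, had 11.6 and 17.1 FPKM in the PD libraries, against 21.6 and 21.4 in the DMSO libraries (limma adjusted p = 0.837). Btbd2 had 5.28 and 4.56 FPKM in the PD libraries and 7.04 and 6.1 in the DMSO libraries. Kctd20 had 9.09 and 7.96 FPKM in the PD libraries and 7.72 and 7.34 in the DMSO libraries.

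Cullins are switched on by attachment of the ubiquitin-like protein Nedd8 and switched off by the COP9 signalosome, and Cand1 exchanges their adaptors. Of 29 genes of this machinery, 25 were tested, and 0 passed. Among these, 6 were separated with PD lower and 9 with PD higher, 24% and 36%, against 18.3% and 17.5% of all tested genes. The median log2 difference was 0.15, and it was -0.03 without PD replicate 2. Nedd8 itself had 39.4 and 19.8 FPKM in the PD libraries, against 76.4 and 58.4 FPKM in the DMSO libraries. The groups did not overlap, with limma giving -1.23 ± 0.42 on the log2 scale (difference ± SE, adjusted p = 0.825), and PD replicate 2 rested on 7 recovered reads. Cand1 lay in the opposite order, at 54.2 and 53.9 FPKM in the PD libraries and 31.5 and 34.9 in the DMSO libraries, for which limma gave 0.69 ± 0.24 on the log2 scale (difference ± SE, adjusted p = 0.825). Gps1, a COP9 signalosome subunit named after its values were seen, had the widest difference of the 25, with 0.771 FPKM and a listed 0 in the PD libraries and 3.82 and 3.03 FPKM in the DMSO libraries. Ube2m, the enzyme that passes Nedd8 to cullins together with Rbx1, had 55.4 and 64.7 FPKM in the PD libraries and 38.9 and 48.8 in the DMSO libraries. Glmn, an inhibitor that covers Rbx1, had 12.7 and 15.2 FPKM in the PD libraries and 9.72 and 9.49 in the DMSO libraries.

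The other cullins and their linkers showed both directions. Of 12 tested genes of 14 listed, 4 were separated with PD lower and 2 with PD higher. These are 33.3% and 16.7%, against 18.3% and 17.5% of all tested genes. The median log2 difference was -0.06, which was 0.09 without PD replicate 2, and 0 passed. Skp1a, the linker of Cul1 ligases, had 107 and 95.1 FPKM in the PD libraries, against 207 and 144 FPKM in the DMSO libraries (limma adjusted p = 0.837). Anapc11, the RING subunit of the anaphase-promoting complex, had 9.51 and 10.4 FPKM in the PD libraries and 16.8 and 10.7 in the DMSO libraries. Cul5 had 16.5 and 15.1 FPKM in the PD libraries and 12.2 and 12.3 in the DMSO libraries. Eloc, the linker of Cul2 and Cul5 ligases, had 58.1 and 59.8 FPKM in the PD libraries and 56.2 and 38.7 in the DMSO libraries.

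Clients of the adaptors were read in the same way, although a ligase acts on their protein and not on their footprints. Of 6 mitotic clients and their partners, 2 were separated with PD lower and 2 with PD higher. These are 33.3% each, against 18.3% and 17.5% of all tested genes. The median log2 difference was 0.11, which was -0.14 without PD replicate 1, and 0 passed. Aurkb, which encodes Aurora B, had 43.6 and 35.3 FPKM in the PD libraries and 50.5 and 53.1 in the DMSO libraries (limma adjusted p = 0.837). Plk1 had 35.6 and 36.3 FPKM in the PD libraries and 51.6 and 39 in the DMSO libraries. Cdca8, which encodes Borealin, a partner of Aurora B, had 93.8 and 47.4 FPKM in the PD libraries and 35.9 and 45.4 in the DMSO libraries. Aurka, the spindle pole kinase, had 65.9 and 51.9 FPKM in the PD libraries and 42.9 and 45.7 in the DMSO libraries.

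Of 19 tested genes among Nrf2 and its targets, 4 were separated with PD lower and 1 with PD higher. These are 21.1% and 5.26%, against 18.3% and 17.5% of all tested genes. The median log2 difference was -0.14, and 0 passed. G6pdx, the X-linked entry enzyme of the pentose phosphate pathway, had 11.6 and 10 FPKM in the PD libraries and 15.5 and 19.6 in the DMSO libraries. Txnrd1, a thioredoxin reductase, had 41.5 and 38.3 FPKM in the PD libraries and 49.9 and 49.6 in the DMSO libraries. Abcc4, an export pump, had 11.9 and 8.3 FPKM in the PD libraries and 14 and 18.4 in the DMSO libraries. Nqo1, the quinone reductase often used as a readout of Nrf2, lay in the opposite order, with 28.6 and 16.7 FPKM in the PD libraries and 14.4 and 11.5 in the DMSO libraries (limma adjusted p = 0.837). Of the 8 clients and co-adaptors of Klhl12, 1 was separated with PD lower and 1 with PD higher, 12.5% each, and 0 passed, with a median of 0.07. Sec13, which forms the vesicle coat with Sec31, had 61.9 and 63.4 FPKM in the PD libraries and 90.2 and 76.8 in the DMSO libraries.

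**Figure D3:**
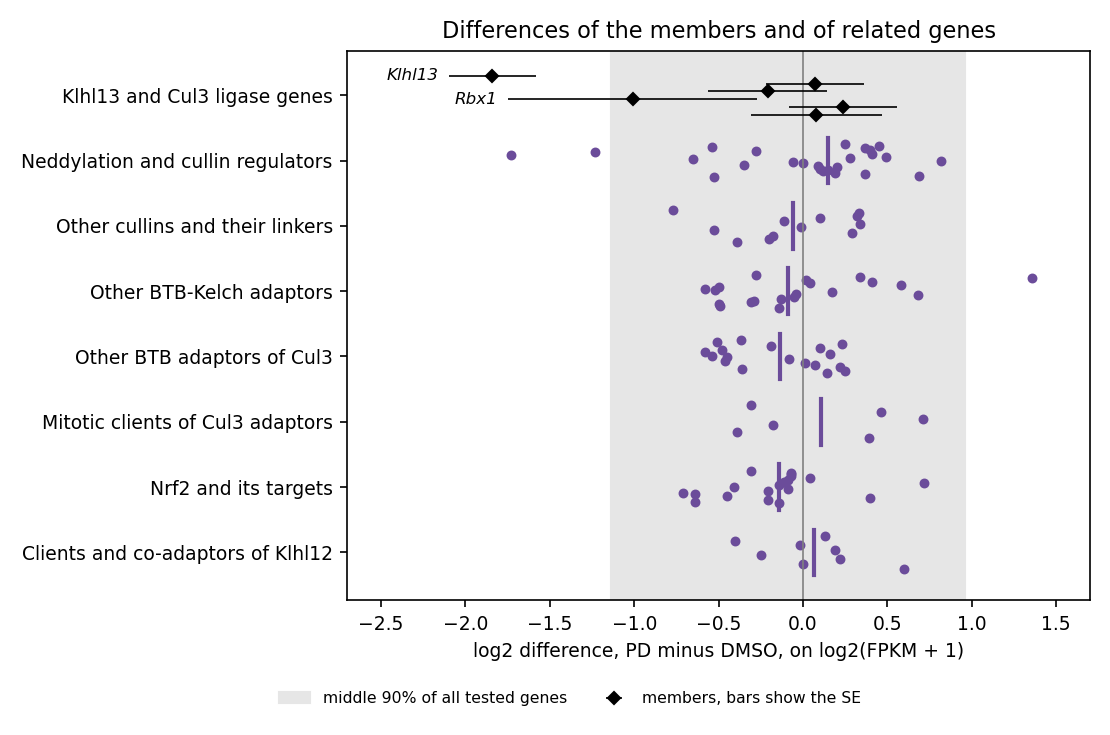
Log2 differences, PD minus DMSO, on the log2(FPKM + 1) scale: the 6 members as diamonds with their SE, the tested genes of 7 related lists as points with each list's median as a vertical line, and the middle 90% of all tested genes as a grey band from -1.13 to 0.96. Klhl13, which was chosen for this difference, lies left of the band at -1.84 and the other 5 members lie inside it.

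Since Klhl13 is X-linked, the rest of its chromosome was set beside it. Of 349 other tested genes on the X chromosome, 62 were separated with PD lower and 55 with PD higher, 17.8% and 15.8%, close to the 18.3% and 17.5% of all tested genes. Their median log2 difference was -0.04, and 0.03 with quantile normalization. Within 1000000 bases of the Klhl13 locus the table held 3 other genes, of which only Wdr44, a regulator of recycling vesicles, was tested. It lies 327969 bases away and had 5.73 and 5.61 FPKM in the PD libraries, against 3.22 and 3.51 FPKM in the DMSO libraries (limma adjusted p = 0.837). Its libraries lay in the opposite order from those of Klhl13.

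The patterns most like those of the members were sought among 5024 other coding genes whose mean reached 5 FPKM, by the root mean square distance of log2(FPKM + 1) over the 4 libraries after centring each gene. The nearest to Klhl13 was Epcam, an epithelial adhesion protein of pluripotent cells, at a distance of 0.203, with 25.8 and 27.7 FPKM in the PD libraries and 68.4 and 88.9 in the DMSO libraries. Zfyve21, at 0.261, had 2.11 and 2.92 FPKM in the PD libraries and 7.24 and 8.29 in the DMSO libraries, and Rpl37rt, which may share reads with the ribosomal protein gene Rpl37, followed at 0.272. Cdc73, Rnf20 and Tpp2 were nearest to Klhl9, at 0.016 to 0.0221. Vcp, Rnf149 and Dtymk were nearest to Cul3, at 0.0432 to 0.0472. Gosr2 and Mrpl33 were nearest to Rbx1, at 0.111 and 0.116, and had replicate 1 above replicate 2 in both groups as Rbx1 did. Gosr2, a vesicle fusion protein of the Golgi, had 7.09 and 1.9 FPKM in the PD libraries and 11.9 and 4.91 in the DMSO libraries. Bzw2, Ap3s2 and Eif3f were nearest to Keap1, and B3gnt2, Gcdh and Noc3l to Klhl12. With 4 libraries, such likeness describes these values and no more.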

How the data were processed

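The deposited table gives FPKM values for 25170 genes in 4 libraries, with a lower and an upper bound each, and per the file headers they have the column layout of Cufflinks. Named in the submitters' processing notes are Cufflinks, STAR, Bowtie2, Trimmomatic, FastQC and the build mm10; the sources used here give no versions. 1 gene with a failed status was left out. Gene types came from RefSeq on GRCm38.p6, where 25081 symbols were found. Loci are the table's, with 1 added to each start, which equals the RefSeq start for 14684 genes, and a locus can span joined neighbours.

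The 9741 genes whose mean reached 1 FPKM were tested. Limma 3.58.1, run in R 4.3.3, was applied to log2(FPKM + 1) by lmFit and eBayes with a variance trend and group as the only term, with Benjamini-Hochberg adjustment over all tested genes and a threshold of 0.05. The log2(FPKM + 1) scale understates the change of low genes. The fit and the recovery of reads (tolerance 0.02 reads) were tested on simulated data. Depth is not stated in the table and was inferred.

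The members and lists were chosen with earlier results of these data known. From each list, up to 4 genes were named: the widest differences among those with a mean of at least 5 FPKM whose groups did not overlap. For each member, the 3 genes most like it were named, except 1 that is not reported here. Alternatives were other pseudocounts, filters and scalings, no variance trend, a replicate block and each library left out.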

Additional observations from a re-analysis of the deposited data

How the results depend on the processing

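The log2 difference of Klhl13 lay between -1.87 and -1.77 under the 9 settings that kept all libraries (pseudocount, filter, scaling, variance model or replicate block), and between -1.99 and -1.7 when each library was left out in turn. The filters, the variance model and the replicate block cannot change a log2 difference in this balanced design. Among these 9 settings, only the pseudocounts and scalings could therefore move it. None of the 5 partners passed under the 9 settings. Their sign held in 59 of 65 fits over all 13 alternatives, a count that includes the fits in which it could not change. The 6 turns came from leaving out a library, over which the log2 difference ran from -0.58 to 0.16 for Cul3, from -0.13 to 0.27 for Klhl9, from -0.06 to 0.54 for Keap1 and from -0.33 to 0.5 for Klhl12; for Rbx1, which kept its sign, it ran from -1.8 to -0.21. Leaving out a library left 1 to 4 members with both groups apart and PD below, and 1 to 2 with PD above. With all libraries these counts were 1 and 0. The group left with 1 library separates more easily by construction, and that library is assumed to vary like the other group. The shares of 18.3% and 17.5% of all tested genes are from all libraries. No such share is given for the fits with a library left out, so these counts do not set the members apart from other genes. The numbers of tested genes called lower and higher by limma (22 and 3) were 17 and 2 with the replicate block, and ran from 0 to 20 and from 0 to 27 when a library was left out: both were 0 without DMSO replicate 1 and without DMSO replicate 2, with 10 and 13 without PD replicate 1 and 20 and 27 without PD replicate 2. The cause was not tested. The labels do not say whether same-numbered replicates were paired. Replicate 1 minus replicate 2 correlated at r = 0.203 between the groups across 8895 coding genes, which are not independent replicates. None of the 5 partners was called with or without the block, so this does not show whether pairing matters. PD replicate 2, the shallowest library, held 3, 13 and 19 recovered reads for Rbx1, Klhl12 and Keap1.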
